A study of Mus musculus with 4 samples.

Results

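Slc2a3 encodes the glucose transporter GLUT3, and its mRNA carried 8 clusters of Argonaute-crosslinked reads in the cytoplasm of mouse embryonic stem cells (ESCs). Those were all the clusters with the gene name Slc2a3 among 2659 clusters of the ESC table, and 0 of the 889 clusters of the C2C12 myotube table had that name. The gene was chosen by its reads and clusters in the ESC table, so those counts are given as a description. The ESCs expressed doxycycline-inducible HA-Flag-AGO2, were treated with doxycycline at 2.5 ug/ml for 15 h, and their cytoplasmic AGO2 was captured with an anti-FLAG antibody. The myotubes came from the C2C12 mouse myoblast line after 2 days of fusion, and their endogenous Argonaute was captured from the cytoplasm with a pan-AGO affinity peptide. Both were irradiated at 312 nm for 5 min. The cell type, the Argonaute source and the capture changed together. Each cell type was taken as 1 library, and the nuclear fractions of both were not analysed here.

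GLUT3 is a high-affinity facilitative transporter that moves glucose across the plasma membrane down its concentration gradient. It is best known from neurons, and pluripotent and early embryonic cells also express it. Argonaute proteins hold a miRNA and are guided by its seed, the bases near the 5' end, to matching sites that lie mostly in 3'UTRs, where binding usually lowers translation and stability of the mRNA. In PAR-CLIP a light-sensitive nucleoside in the RNA crosslinks to the bound protein and leaves T-to-C conversions in the reads, so a cluster is a short stretch of RNA under crosslinked reads.

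Sequences of 7 clusters are shown because they are the RNA that was crosslinked, and because any miRNA match has to be read in them. They run 5' to 3' on the transcript, which lies on the minus strand of chromosome 6 (mm10). Cluster 1 was annotated as coding sequence and clusters 2 to 8 as 3'UTR. Clusters 3, 7 and 8 were 35, 33 and 44 nt long, and only their last 30 bases are printed. Capitals mark matches to bases 2 to 8 of a miRNA, described further on.
cluster 1, chr6:122739964-122739983: actttcttaactacactttg
cluster 3, chr6:122729648-122729682: gccgcagctccccttaggttctaaaacccg
cluster 4, chr6:122729584-122729605: cccccaccaccaccttagtttg
cluster 5, chr6:122729461-122729482: ttttatttattttatcttcagg
cluster 6, chr6:122728020-122728040: tattcaactctccactccctg
cluster 7, chr6:122727927-122727959: cctctaacttcacCTCTTCAGTTCCTccag
cluster 8, chr6:122727849-122727892: tactttctattaatgtTACTGTAGtttctg

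Binding on the Slc2a3 3'UTR fell into 2 groups of clusters, one near its 3' end and one far upstream. Clusters 6, 7 and 8 sat within 192 nt, from 231 to 40 nt upstream of the RefSeq 3' end of the gene. Clusters 3, 4 and 5 sat from 1873 to 1652 nt upstream of that end, with cluster 2 farther upstream. No cluster was listed in the 1420 nt between these groups. The grouping was made after the positions were seen. Cluster 1 lay 12174 to 12155 nt of genome upstream of that end, a distance that may include introns, since exon positions were not used here.

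The downstream group held most of the reads. Cluster 6 had 65 reads, cluster 7 had 28 and cluster 8 had 39, together 132 of 213 reads (62.0%, exact 95% interval 55.1 to 68.5). Clusters 2, 3, 4 and 5 had 14, 6, 7 and 9 reads, together 36 reads (16.9%, interval 12.1 to 22.6). The coding cluster had 45 reads (21.1%, interval 15.8 to 27.2). Per covered length, the downstream 3'UTR group had 1.35 reads per nt over 98 nt, the upstream 3'UTR group 0.350 over 103 nt and the coding cluster 2.25 over 20 nt, so the coding cluster came first on that scale. Among single clusters, cluster 6 was the most read on both scales, with 3.10 reads per nt. All intervals cover counting error only and treat each read as independent. PCR copies of 1 molecule could not be told from separate molecules, so the intervals may be too narrow.

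**Figure D1:**
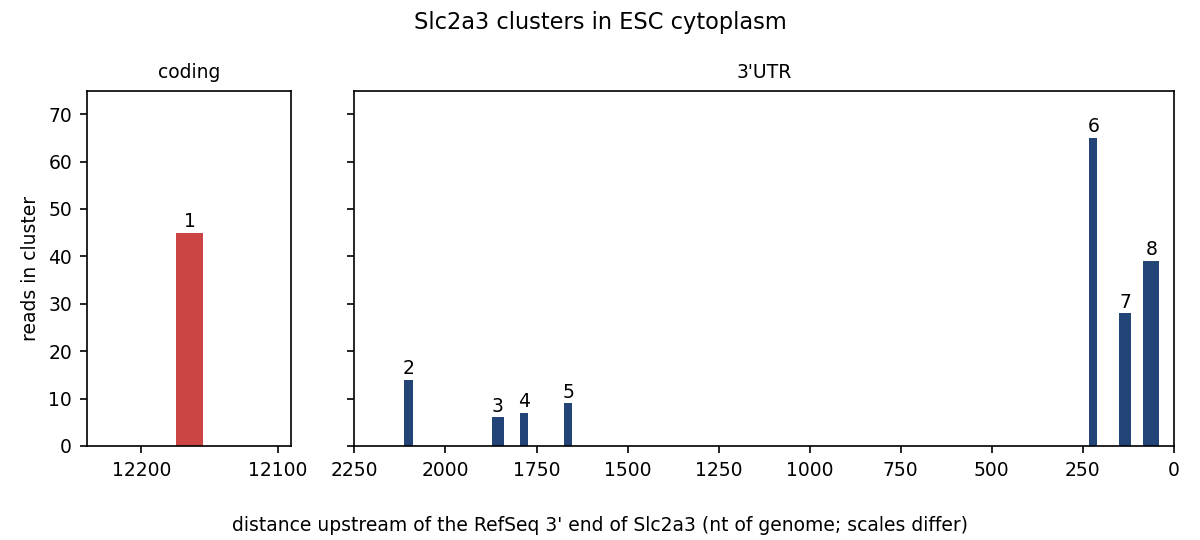
Reads in each Slc2a3 cluster of the ESC cytoplasm (bar height) against distance upstream of the RefSeq 3' end in nt of genome (bar width is the cluster length), with the coding cluster and the 3'UTR clusters on separate scales. Clusters 6 to 8, with 65, 28 and 39 reads, stand at the 3' end, and clusters 2 to 5, with 6 to 14 reads, stand beyond a gap of 1420 nt.

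Distinct read sequences gave a partly different order among the clusters. Cluster 8 had 23 distinct sequences under its 39 reads, whereas cluster 6 had 11 under 65 reads, cluster 7 had 11 under 28 and cluster 1 had 8 under 45. The remaining clusters had 3 to 5 distinct sequences. Reads per distinct sequence were 5.91 in cluster 6 and 5.63 in cluster 1, against 1.70 in cluster 8. The median was 2.44 over the 8 Slc2a3 clusters and 2 over 1318 other ESC 3'UTR clusters. The downstream group still led by this count, with 45 of 70 distinct sequences, against 17 in the upstream group and 8 in the coding cluster.

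About equal numbers of Slc2a3 reads carried the crosslink signature and lacked any mismatch. Of 213 reads, 110 had a T-to-C conversion (51.6%, interval 44.7 to 58.5), 96 had no mismatch and 7 had another mismatch. Those 7 reads lay in cluster 6 (4 reads) and cluster 8 (3 reads). The converted share was 43.1% in cluster 6 (28 of 65 reads, interval 30.8 to 56.0) and 51.1% in the coding cluster (23 of 45 reads, interval 35.8 to 66.3). It was 85.7% in cluster 4, on 7 reads, with an interval of 42.1 to 99.6. The intervals of all 8 clusters overlapped, as did those of the downstream 3'UTR group (49.2%, interval 40.4 to 58.1) and the upstream group (61.1%, interval 43.5 to 76.9).

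**Figure D2:**
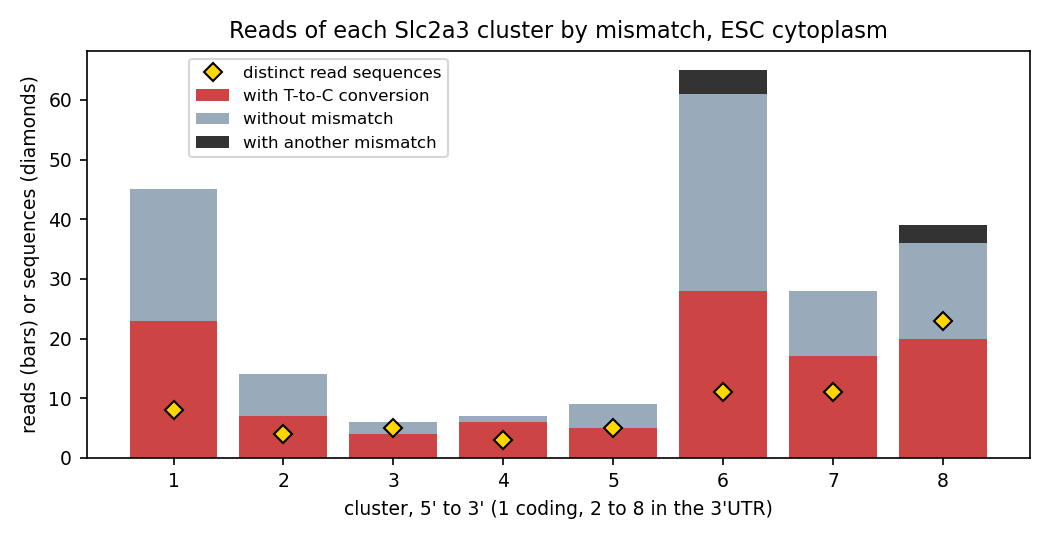
Reads of each Slc2a3 cluster in the ESC cytoplasm (stacked bars), split into reads with a T-to-C conversion, without a mismatch and with another mismatch, and distinct read sequences (diamonds). Cluster 6 is the tallest with 65 reads, cluster 8 has the most distinct sequences with 23, and reads with another mismatch appear in clusters 6 and 8.

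Converted positions were spread over the clusters. The 8 clusters held 79 T bases, of which 38 were listed as converted in at least 1 read (48.1%). The coding cluster had conversions at 7 of 9 T bases, cluster 6 at 5 of 7 and cluster 7 at 7 of 11. Cluster 5, which is mostly T and A, had them at 4 of 14. The median share of T bases converted was 45% over the 8 Slc2a3 clusters, the coding one included, and 33.3% over the other ESC 3'UTR clusters. Slc2a3 clusters also had more reads, with a median of 21 against 8, and the part of read depth in this gap was not tested.

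Conversion on Slc2a3 was in the range of other clusters of the same class and similar depth, and 6 of its 8 clusters lay below their median. Over the 1318 other ESC 3'UTR clusters the median converted share was 77.8%. That median moved with depth, at 83.3% in clusters of 4 to 9 reads, 66.7% in those of 10 to 19 reads and 57.9% in those of 20 or more reads. Of 145 other 3'UTR clusters with 20 or more reads, 35 (24.1%) had a lower converted share than cluster 6, 55 (37.9%) a lower one than cluster 8 and 86 (59.3%) a lower one than cluster 7. Cluster 5, at 55.6%, stood lowest among its like, with 42 of 784 clusters of 4 to 9 reads (5.36%) below it. Clusters 2, 3 and 4 had 19.8%, 14.7% and 50.4% of the others below them. The coding cluster exceeded 13 of 30 other coding clusters with 20 or more reads, whose median was 58.2%.

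**Figure D3:**
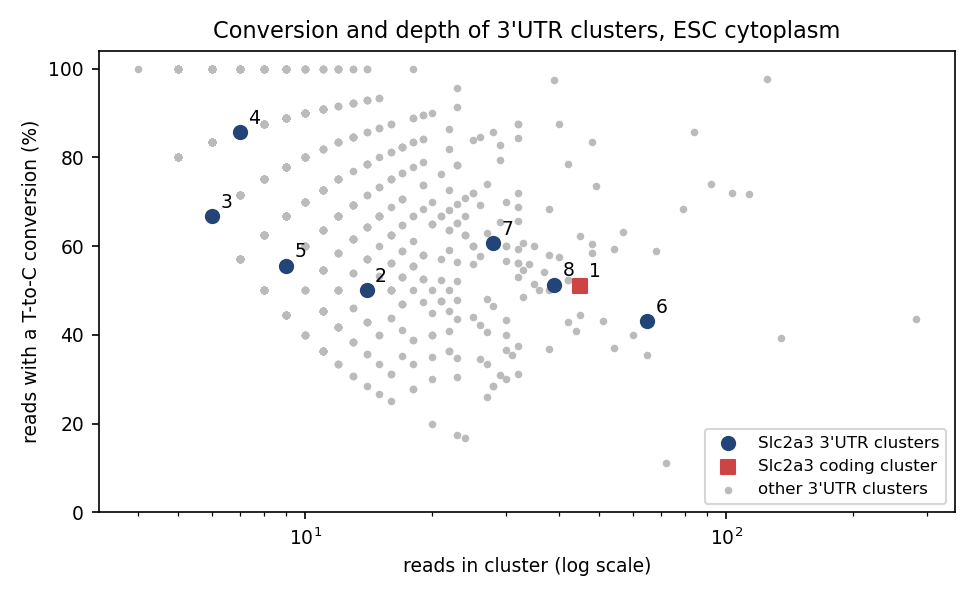
Share of reads with a T-to-C conversion in percent against reads per cluster (log scale) for the Slc2a3 clusters (numbered) and the 1318 other 3'UTR clusters of the ESC cytoplasm (grey). The Slc2a3 clusters, from 43.1% to 85.7%, lie inside the cloud, which falls from a median of 83.3% at 4 to 9 reads to 57.9% at 20 or more.

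The Slc2a3 clusters shared their last base and varied in base composition. All 8 sequences ended in G, the base after which RNase T1 cuts, and clusters 1 and 6 were among those that held no other G. Over all ESC clusters on the minus strand, 84.2% ended in G. The deposited share of reads ending in G was nevertheless 0 for each Slc2a3 cluster. It was 0 in 90.2% of 1270 minus-strand ESC clusters and in 7.99% of 1389 plus-strand clusters, so that column cannot be read for this gene. Pyrimidines made up a median of 72.7% over the 8 Slc2a3 clusters, the coding one included (range 51.4 to 83.3%). The median over other ESC 3'UTR clusters was 66.7%. Cluster 3 differed from the others with 9 G bases in 35 nt.

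Short runs recurred within the mRNA. Clusters 5 and 8, which lie in different 3'UTR groups, shared tatcttca, which stood in 5 of the 1325 ESC 3'UTR clusters, these 2 included. In cluster 8 it lies in the bases that are not printed. Cluster 5 held the AU-rich pentamer ATTTA, which marks many unstable mRNAs and stood in 93 of 1325 ESC 3'UTR clusters (7.02%). The runs were picked after the sequences were seen, and were searched on the transcript strand only.

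A miRNA match of 7 bases was found in cluster 8 when 93 miRNAs of widely conserved families and of ESCs and muscle were searched. The share over the library was 11.3% of clusters (300 of 2659), or 12.8% of the 3'UTR clusters, so 1 of 8 Slc2a3 clusters is near the background. In cluster 8 the capitals join the sites TACTGTA, for miR-101b-3p, and ACTGTAG, for miR-139-5p, which overlap by 6 bases. TACTGTA stood in 1 of 2659 ESC clusters, this one, and ACTGTAG in 2. Neither miRNA had a cluster at its own locus in either table. Only 24 mature miRNAs had such a cluster in ESCs and 21 in myotubes. A miRNA without one has no value here, and its absence from Argonaute cannot be read from that. The mature sequences of miR-101b-3p and miR-139-5p are from RefSeq (GRCm38.p6), with bases 2 to 8 in capitals.
mmu-miR-101b-3p: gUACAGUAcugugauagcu
mmu-miR-139-5p: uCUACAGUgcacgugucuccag

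Cluster 7 matched miRNAs that were themselves recovered with Argonaute in ESCs. A search limited to the 24 RefSeq mature miRNAs whose locus had an ESC cluster, chosen after seeing the data, found sites in cluster 7 alone, against 3.27% of all ESC clusters. The capitals there join CTCTTCA, for miR-300-5p, and AGTTCCT, for miR-298-3p, which share 1 base. The Mir300 cluster had 82 reads and the Mir298 cluster 21 reads in ESCs, and neither locus had a cluster in myotubes. CTCTTCA stood in 25 ESC clusters and 11 myotube clusters, and AGTTCCT in 1 ESC cluster, this one. Clusters 7 and 8, at 33 and 44 nt, were longer than most other ESC 3'UTR clusters, whose median was 22 nt. The shares of clusters with a site were not matched for length. The sequences follow, with bases 2 to 8 in capitals.
mmu-miR-300-5p: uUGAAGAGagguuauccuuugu
mmu-miR-298-3p: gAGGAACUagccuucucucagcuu

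Shorter matches reached other clusters. With the complement of bases 2 to 7 only, 4 of 8 Slc2a3 clusters held a site of a listed miRNA, beside 33.4% of all ESC clusters. The coding cluster held CACTTT, the site of that kind for miR-17-5p, miR-20a-5p and miR-93-5p, which stood in 119 ESC clusters (4.48%) in all. None of these 3 mature miRNAs had a cluster over its own sequence in either table. The Mir20a locus did hold a myotube cluster of 14 reads, over miR-20a-3p. Cluster 3 held GCAGCT, for miR-22-3p, and cluster 4 held CACCTT, for miR-18a-5p. Besides its 7-base sites, cluster 8 held TACTGT, for miR-101a-3p and miR-144-3p, and TGTTAC, for miR-194-5p. Clusters 5, 6 and 7 held no listed site of 6 or 7 bases, and cluster 6 had the most reads. The sites marked in cluster 7 are of miRNAs outside that list. Only bases within the clusters were searched, so nothing is said here of sites beside them.

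Myotubes listed no Slc2a3 cluster. The smallest myotube cluster had 5 reads and every cluster had at least 2 converted positions, so a gene without a cluster has no value in that table and no ratio was computed. The ESC share of 213 in 214955 cluster reads (0.0991%, interval 0.0862 to 0.113) would equal 134 of the 135023 myotube cluster reads. Nuclear mRNA clusters held 22252 of the ESC reads but only 4820 of the myotube reads. Scaled to nuclear mRNA reads, the equal number would be lower, and it was not computed. A missing myotube cluster was common, since 83.8% of the 1461 genes with an ESC cluster had none. It was so for 17 of the 29 nuclear mRNAs with at least 100 ESC reads, and for 8 of the 14 with at least 8 ESC clusters, Slc2a3 included. RNA levels were not measured here, so binding cannot be told apart from expression of the gene. The labelled cell types were set beside their markers. Of 21900 RefSeq protein-coding genes, 5.71% had an ESC cluster and 1.6% a myotube cluster. Of 15 ESC markers, 8 had ESC clusters (617 reads) and 0 had myotube clusters. Of 15 skeletal muscle markers, 1 had an ESC cluster (Mylpf, 12 reads) and 6 had myotube clusters (283 reads). Stmn2, with 6 reads in ESCs, was the one neuronal marker of 10 with a cluster, and none of 4 blood and 5 fibroblast markers had one.

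Among 1217 nuclear mRNAs of the ESC table Slc2a3 ranked 3 by reads, with 213 against a median of 10, and 6 by distinct sequences. By clusters it ranked 8 in a tie, since 14 genes had at least 8. The genes with the nearest values, by distance over log2(value + 1) of reads and clusters in the 2 libraries, were Polr2a, the large subunit of RNA polymerase II, Trp53inp1, a p53-induced regulator of autophagy, Ei24, an endoplasmic reticulum protein, Sox2 and Tfcp2l1. Sox2 and Tfcp2l1 are transcription factors of pluripotency. Since Slc2a3 has no myotube cluster, the distance favours genes without one, and none of these 5 had one. Their clusters lay on different parts of the mRNA, with 7 of 8 in the 3'UTR for Slc2a3, 2 of 11 for Polr2a, 10 of 11 for Trp53inp1, 2 of 7 for Ei24, 3 of 5 for Sox2 and 15 of 16 for Tfcp2l1. Reads per covered nt were 0.964 for Slc2a3, between 0.486 for Tfcp2l1 and 1.12 for Sox2.

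Conversion and the weight of the leading cluster also varied among these mRNAs. The converted share of 51.6% in Slc2a3 lay above those of Polr2a (42.6%), Ei24 (43.7%) and Sox2 (46.0%), with overlapping intervals. It lay below Tfcp2l1 at 71.7% (interval 64.9 to 77.9) and Trp53inp1 at 74.8% (interval 67.2 to 81.5), whose intervals did not overlap that of Slc2a3. The leading cluster held 30.5% of the Slc2a3 reads. It held 12.6% of the reads in Tfcp2l1, 15.5% in Trp53inp1, 27.7% in Ei24, 36.9% in Polr2a and 43.1% in Sox2. These differences were not tested, and deeper clusters had lower converted shares in the library as a whole.

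**Figure D4:**
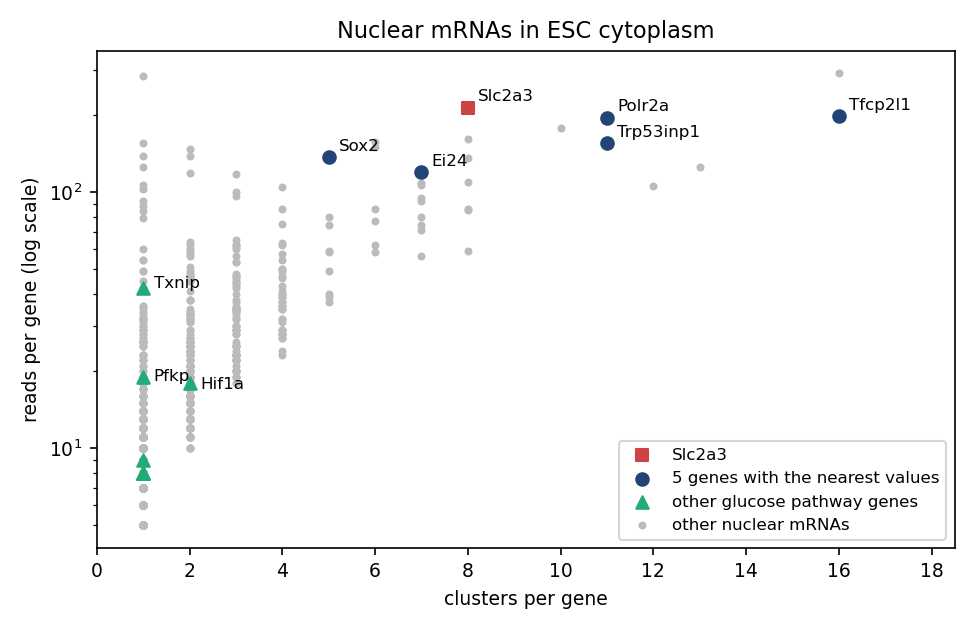
Reads per gene (log scale) against clusters per gene for the 1217 nuclear mRNAs of the ESC cytoplasm, with Slc2a3 (red), the 5 genes with the nearest values (blue) and the other glucose pathway genes with an ESC cluster (green). Slc2a3 stands at 213 reads in 8 clusters, and the next glucose pathway gene, Txnip, at 42 reads in 1 cluster.

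Slc2a3 was the only glucose transporter of its family with a cluster. The other 11 Slc2a genes, which include the widely expressed Slc2a1 and the insulin-regulated Slc2a4, had none in either table. Of 67 genes of glucose uptake, glycolysis and its control, 8 had ESC clusters (11.9%) and 3 had myotube clusters (4.48%). With at least 10 reads per cluster these were 4 and 1. The shares over all RefSeq protein-coding genes, expressed or not, were 5.71% and 1.6%, and this list holds genes that most cells express. Slc2a3, which was chosen by its ESC reads and clusters and is counted among the 8, held 213 of the 325 ESC reads of the list. Txnip, an arrestin-family protein that limits glucose uptake, had 42 reads in 1 ESC cluster of its 3'UTR, and its relative Arrdc4 had 8 reads. Neither had a myotube cluster.

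Among the listed enzymes of glycolysis, only Pfkp, a phosphofructokinase, had a cluster, with 19 ESC reads. Hif1a, the hypoxia factor that drives glycolytic genes, had 18 ESC reads in 2 coding clusters. Pdk1 and Pdk3, which encode kinases that inhibit pyruvate dehydrogenase, had 8 ESC reads each. Pdha1, which encodes a subunit of pyruvate dehydrogenase, the enzyme that turns pyruvate into acetyl-CoA, was the one gene of the list in both libraries, with 9 ESC and 7 myotube reads at separate positions and a log2 ratio of read share of -0.31 (interval -1.90 to 1.35). The lactate transporter gene Slc16a1 (5 reads) and the kinase gene Gsk3b (18 reads in 2 clusters) had clusters in myotubes only.

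The Pfkp cluster of the same library held overlapping 7-base sites of several listed miRNAs. It lay at chr13:6581370-6581389 on the minus strand, and is printed with all listed matches in capitals.
Pfkp cluster: ttatttatcAGCACTTTATg
Those capitals hold the sites of miR-291a-3p and miR-294-3p, of miR-17-5p, miR-20a-5p and miR-93-5p, and of miR-142a-5p, which overlap. None of these mature miRNAs had a cluster over its own sequence in either table. The Mir142 locus did hold an ESC cluster of 43654 reads, over miR-142a-3p. No Slc2a3 cluster held a 7-base site of the miRNAs named here for Pfkp. The other ESC and myotube clusters of the glucose genes held none of a listed miRNA.

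On the chromosome, Slc2a3 lies next to Nanog, a pluripotency factor gene that ends 13175 nt before the RefSeq 3' end of Slc2a3. Nanog is read from the plus strand and had 117 ESC reads in 3 clusters, against 213 on the minus strand for Slc2a3. The tables give a strand for each cluster, so the reads of these neighbours are kept apart.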

How the data were processed

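Tables of called clusters of 2 of the 4 samples were used, and each was assigned to its sample by its worksheet name. Read, distinct-sequence and conversion columns hold raw counts, which the authors deposited without normalization. The converted share and the share of reads ending in G were deposited by the authors as a fraction. A conversion specificity was deposited as a log10 value and was not used. Per the submitters' processing notes, bcl2fastq 2.17.1 and the build mm10 were used. Which aligner and caller made the clusters, and whether libraries were pooled, is not given in the sources used here. The sample titles end in (2), which the labels do not explain, and each sample was taken as 1 library. In the tables, 4 ESC lines and 1 myotube line were blank. The 3 read classes summed to the cluster's reads in 99.5% of ESC and 99.4% of myotube clusters.

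Rows were taken by the gene symbol with Python 3.11.15 and pandas 2.3.3. Shares have exact Clopper-Pearson 95% intervals (scipy 1.17.1), and with 1 library per group no test was made. Distances run from the RefSeq gene end. Of 108 listed miRNA names 93 had a mature sequence in RefSeq, giving 81 sites, and a locus needed an overlap of 15 nt on the same strand. Interval and site searches were tested on simulated data. Named genes were Slc2a genes, glucose list members with a cluster, and the 5 genes nearest to Slc2a3 in reads and clusters. The gene and the lists were chosen with earlier results of these data known, and the miRNA list was written after the Slc2a3 sequences were seen. Alternatives were the counted unit, the denominator, the minimum reads, the cluster class and the site type. The sequence of cluster 2 is not reported here. Whether Slc2a3 reads could align elsewhere was not checked.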

Additional observations from a re-analysis of the deposited data

How the results depend on the processing

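The Slc2a3 share of ESC reads depended on its denominator. It was 0.0991% of all cluster reads, 0.137% outside the mitochondrial chromosome, 0.957% of nuclear mRNA reads, 1.08% with 3'UTR clusters only, and 0.292% by distinct sequences, while clusters with at least 10 reads gave 0.0929%. The myotube share and the ratio had no value under any setting, since no Slc2a3 cluster was listed there. The converted share stayed within its interval, at 53.4% as the median over clusters and 49.7% with at least 10 reads. The count of Slc2a3 clusters with a miRNA site was 1 with 7-base sites, 4 with 6-base sites, 0 with 8-base sites and 7 with every RefSeq miRNA, which matched 79.2% of all ESC clusters. With at least 10 reads, 4 glucose genes remained in ESCs and 1 in myotubes. No paired analysis was possible because each group was taken as 1 library. Clusters of few reads limit the precision. A gene without a cluster has no value here, and the reason for its lack of a cluster was not tested.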
